A study of Mus musculus with 15 samples.

Results

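The dual-specificity phosphatases that act on MAP kinases were described across 15 mouse cell lines, of which 3 carry the genotype letters AP and 12 the letters AKP. The 10 genes Dusp1, Dusp2, Dusp4, Dusp5, Dusp6, Dusp7, Dusp8, Dusp9, Dusp10 and Dusp16 were chosen by name. They are 10 of 18193 genes measured, and the platform annotation gives them 18 of 45037 probe sets. A probe set is a group of short probes, and some probe sets can read more than 1 transcript. A line here is a stock of cells propagated in a dish. Each line was measured once, on an Affymetrix mouse expression array, after growth without treatment in DMEM with 10% serum. The genotype is given only as letters, and no allele, promoter, tissue or animal age is stated. The labels call 1 AKP line, AKP 6, an adenoma and the other 14 lines tumours, and mark 10 lines as female and 5 as male. They also give a pair number for 8 lines, AP 1 and AKP 6 to AKP 12. Nothing says whether a line is 1 clone or whether lines came from separate animals, so a p-value here speaks only of how these particular lines vary.

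MAP kinases are switched on by phosphate on a threonine and a tyrosine of their activation loop, and these phosphatases remove both. ERK, the MAP kinase of growth signalling, acts downstream of RAS and RAF proteins, while JNK and p38 respond mainly to stress. Several of the phosphatase genes are themselves transcribed in response to MAP kinase activity, which makes them both brakes on the pathway and a readout of it. Dusp6, Dusp7 and Dusp9 encode cytoplasmic enzymes that act mainly on ERK. Dusp1, Dusp2, Dusp4 and Dusp5 encode nuclear enzymes induced by growth factors or stress. Dusp8, Dusp10 and Dusp16 encode enzymes that prefer JNK and p38.

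Array medians lay between 3.91 and 4.17 on the log2 scale of the deposited values, and 35.9% to 39.5% of each array's probe sets fell under 3, close to the floor. The table carries no detection calls. The median of all probe-set means, 4.17, served as a mark for dim genes. Lines AP 1 and AKP 1 stood apart, with median correlations of 0.892 and 0.922 with the other lines over all genes. Epithelial markers were present in most lines, with 2 to 9 of 10 at or above 4.17 in AP lines and 5 to 10 in AKP lines. The keratin gene Krt18 lay at 3.62 in AP 1 and at 8.93 to 15.52 in the other lines. Fibroblast and smooth muscle markers were highest in AP 1 and AKP 1, at summed log2 levels of 17.56 and 15.98. Their range was 11.41 to 17.56 in AP and 8.28 to 15.98 in AKP lines. Of the 10, 2 (Col1a1 and Lum) were called lower in AKP, against 1.1% of all genes. Lum lay close to the floor, at means of 3.01 in AP and 2.47 in AKP lines. Of 7 leukocyte markers 0 were called, and their summed level was 6.97 to 9.21 in AP and 7.13 to 11.01 in AKP lines. Ptprc, which marks leukocytes in general, lay at 3.10 or below in every line. Csf1r and Cd68, which mark macrophages, lay higher. Csf1r lay at 6.00 to 8.99 in AP and 4.54 to 6.45 in AKP lines. Cd68 lay at 3.96 to 5.13 in AP and 3.69 to 10.94 in AKP lines, with a difference of 3.74 (limma adjusted p = 0.16). The means of Itgam, Cd3e, Laptm5 and Tyrobp, from the same list, lay under 4.17 in both groups. Over all lines Tyrobp lay at 2.14 to 2.53 and Itgam at 3.23 to 4.08, while Laptm5 reached 5.12 in AP 1. The part of these markers in the results was not tested.

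Setting AKP against AP lines shows which of these genes go with the genotype letters. Dusp6 rose in AKP lines, and it was the only 1 of the 10 genes called by limma at an adjusted p under 0.05 over all genes. No member was called lower, and 9 of the 10 had the higher mean in AKP. Over all 18193 genes, 1.9% were called in either direction, with 0.792% higher and 1.1% lower in AKP lines, and 52.8% had the higher mean in AKP. The median difference over the 10 genes was 0.76 on the log2 scale, against 0.01 over all genes. Without AP 1 it was 0.43, with 8 of 10 means higher in AKP, and without AP 1 and AKP 1 it was 0.46. Without adjustment, 3 of the 10 (Dusp5, Dusp6 and Dusp9) had a p under 0.05 in the direction of AKP, against 7.27% of all genes higher in AKP and 16.5% in either direction. In bulk RNA of this kind, fewer cells that express a gene and less RNA per cell cannot be told apart.

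**Figure D1:**
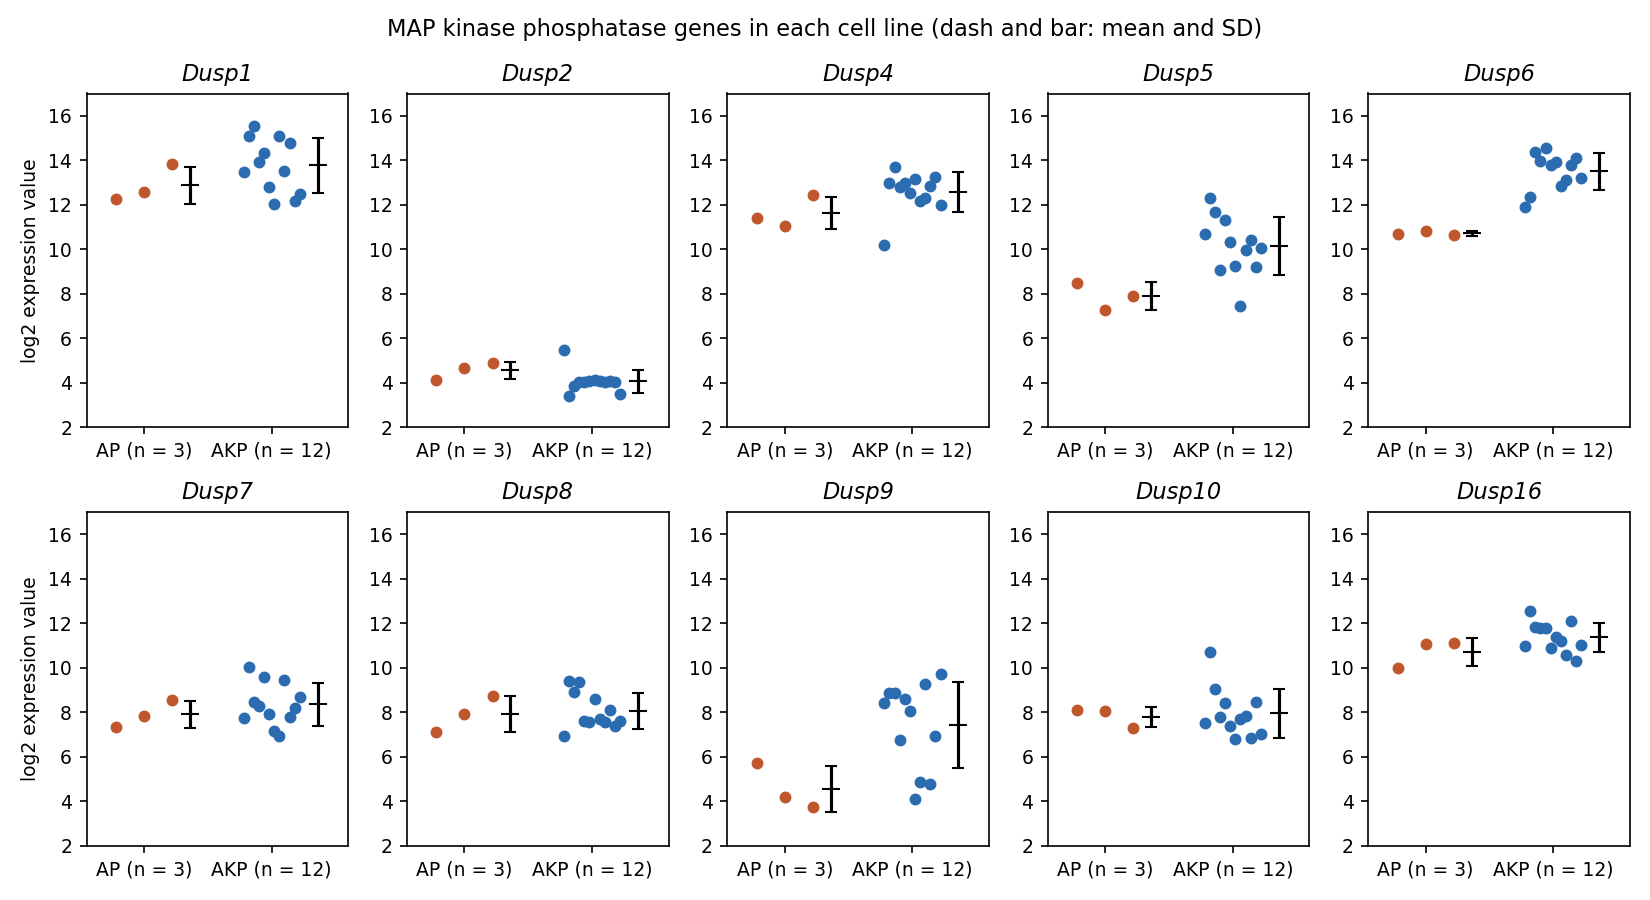
Log2 expression value of each of the 10 genes in every line, by genotype label, for the probe set with the highest mean; each point is 1 line, and the dash with its bar is the group mean and SD (3 AP and 12 AKP lines). All 12 AKP points of Dusp6 lie above the 3 AP points, while the groups overlap for the other 9 genes.

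Dusp6 is a cytoplasmic phosphatase specific for ERK and a widely used readout of ERK activity. It lay at 10.68, 10.84 and 10.62 in AP 1, AP 2 and AP 3. In the 12 AKP lines it ranged from 11.91 in AKP 1, over a median of 13.81, to 14.55 in AKP 5. The AP lines were within 0.22 of each other, and every AKP line lay above all of them. The AP mean was 10.71 ± 0.11 (SD, n = 3) and the AKP mean 13.50 ± 0.81 (SD, n = 12), a difference of 2.78 ± 0.47 (SE; limma adjusted p = 0.010) or 6.87-fold. Groups that did not overlap were found for this 1 of the 10 genes, and for 2.13% of all genes (0.951% higher in AKP). The lowest AKP lines were AKP 1 and AKP 2 (12.37), with AKP 8 at 12.85 and AKP 9 at 13.10. Without AP 1 and AKP 1, the lines with the highest fibroblast and smooth muscle marker levels, the difference was 2.91 (limma adjusted p = 0.0060). It was the only member in the authors' deposited table of 501 genes, where its fold change was 8.03. The authors' deposited table gives means of 13.72 for AKP and 10.71 for AP, a difference of 3.01. Without AKP 1 and AKP 8 the difference from the limma fit was 3.00, so the authors' AKP group may not hold all 12 lines.

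The promoter of Dusp6 is shown because this gene carries the genotype difference, and that of Dusp5 because its difference came next among the genes with an entry. The promoter of Dusp1, which had no call, is shown for contrast as an early response gene. Sequences are from RefSeq (GRCm38.p6), 250 bases before to 50 after the start, 5′ to 3′ on the gene's strand. Capitals mark CGGAA (the core bound by ETS factors) in Dusp6, the CArG box of serum response factor and the half-site TGACG of the cyclic AMP response element in Dusp5, and that half-site in Dusp1, on either strand. In Dusp1 one of the marked runs is the full element TGACGTCA, which holds the half-site on both strands.
Dusp6, chr10:99262981-99263280, + strand: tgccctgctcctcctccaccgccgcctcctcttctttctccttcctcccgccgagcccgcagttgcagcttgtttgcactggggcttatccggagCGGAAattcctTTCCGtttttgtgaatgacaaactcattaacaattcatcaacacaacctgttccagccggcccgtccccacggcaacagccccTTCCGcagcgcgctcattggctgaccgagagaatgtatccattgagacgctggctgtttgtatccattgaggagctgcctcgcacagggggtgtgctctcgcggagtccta
Dusp5, chr19:53528895-53529194, + strand: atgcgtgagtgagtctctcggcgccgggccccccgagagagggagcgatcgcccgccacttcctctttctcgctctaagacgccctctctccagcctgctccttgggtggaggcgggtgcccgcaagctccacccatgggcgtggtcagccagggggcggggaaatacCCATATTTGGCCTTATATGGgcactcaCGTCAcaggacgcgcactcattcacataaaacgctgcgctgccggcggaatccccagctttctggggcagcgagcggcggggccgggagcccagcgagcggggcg
Dusp1, chr17:26508423-26508722, - strand: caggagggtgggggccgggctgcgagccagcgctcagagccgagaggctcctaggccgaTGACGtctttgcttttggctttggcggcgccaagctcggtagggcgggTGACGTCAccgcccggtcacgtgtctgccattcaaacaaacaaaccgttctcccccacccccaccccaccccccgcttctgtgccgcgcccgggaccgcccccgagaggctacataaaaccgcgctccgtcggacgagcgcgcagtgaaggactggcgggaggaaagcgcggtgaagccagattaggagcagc

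The promoter table held 8 of the 10 genes, and Dusp4 and Dusp9 were not among them. Both strands of each 300-base window were searched, and a match is a description of the letters, not a binding site. CGGAA occurred 3 times in Dusp6 and once in Dusp5, and 29.9% of 32851 promoter windows held it. The CArG box occurred 2 times in Dusp5, side by side, and in 1.63% of all windows. TGACGTCA occurred in Dusp1 and 2 times in Dusp8, against 1.79% of all windows. TGACG, which lies within TGACGTCA, was found in Dusp1, Dusp2, Dusp5, Dusp8 and Dusp16 and in 20.8% of all windows. TGANTCA, the AP-1 site, was in 7.81% of windows and in none of the 8.

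Dusp9 encodes another cytoplasmic enzyme that acts on ERK; the gene is X-linked and in mice is needed in the placenta. Its levels split the AKP lines. The probe set 1454737_at lay at 3.64, 3.25 and 3.54 in AP 1, AP 2 and AP 3. It lay as low in AKP 7 (3.60), AKP 8 (3.10) and AKP 10 (3.68). In AKP 4 and AKP 11 it was intermediate, at 6.79 and 6.48, and in AKP 1, AKP 2, AKP 3, AKP 5, AKP 6, AKP 9 and AKP 12 it ranged from 8.51 to 9.85. So 9 of 12 AKP lines lay well above the AP lines, and 3 lay close to them, AKP 8 below and AKP 10 just above all 3. The brightest probe set, 1433845_x_at, placed the lines in the same way, from 4.11 in AKP 7 to 9.70 in AKP 12, against 3.73 to 5.74 in AP. The suffix x marks probes that may also bind related transcripts. The third, 1433844_a_at, lay at 2.02 to 2.24 in AP lines, and was at 3.86 or more in AKP 1, AKP 2, AKP 3, AKP 5, AKP 9 and AKP 12, with the other 6 AKP lines at 2.01 to 2.21.

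The genotype difference of Dusp9 was 2.88 ± 1.13 (SE) for the brightest probe set and did not pass (limma adjusted p = 0.22). The 95% interval of the difference ran from 0.45 to 5.31. The SD over AKP lines, 1.92, was larger than that of 94.4% of all genes. Cdh1, the epithelial cadherin gene, lay at 10.46 to 13.61 in AKP 2, AKP 3, AKP 4, AKP 5, AKP 6, AKP 9, AKP 11 and AKP 12, the lines in which 1454737_at lay at 6.48 to 9.85. It lay at 8.30, 5.71 and 5.89 in AKP 7, AKP 8 and AKP 10, where that probe set was low. AKP 1 had Cdh1 at 5.54 with the probe set at 9.07, and AP 2 and AP 3 had Cdh1 at 11.32 and 9.77 with the probe set low. Other epithelial markers followed the split only in part. Krt8 lay at 12.28, 9.91 and 4.27 in AKP 7, AKP 8 and AKP 10. It lay at 12.48 or more in the AKP lines with Cdh1 at 10.46 or more, so AKP 7 was only just below them. AKP 1 had Krt8 at 9.49 with Dusp9 high, and AP 2 and AP 3 had it at 12.51 and 13.36 with Dusp9 low. Cldn3, Cldn4 and Cldn7, however, lay at 2.26 or below in AKP 2 and AKP 5, where Dusp9 was high. Krt18 lay at 14.01, 8.93 and 14.55 in AKP 7, AKP 8 and AKP 10. In the same lines Krt19 lay at 15.24, 12.44 and 14.58, against 10.76 to 15.30 over all AKP lines. Epcam lay there at 8.11, 9.28 and 8.37, against 8.11 to 9.31 over all AKP lines. The part of these markers in the Dusp9 pattern was not tested. Dusp6 lay at 13.93, 12.85 and 13.81 in AKP 7, AKP 8 and AKP 10, against a median of 13.81 over AKP lines. It was lowest of the AKP lines in AKP 1 (11.91), where Dusp9 was high.

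**Figure D2:**
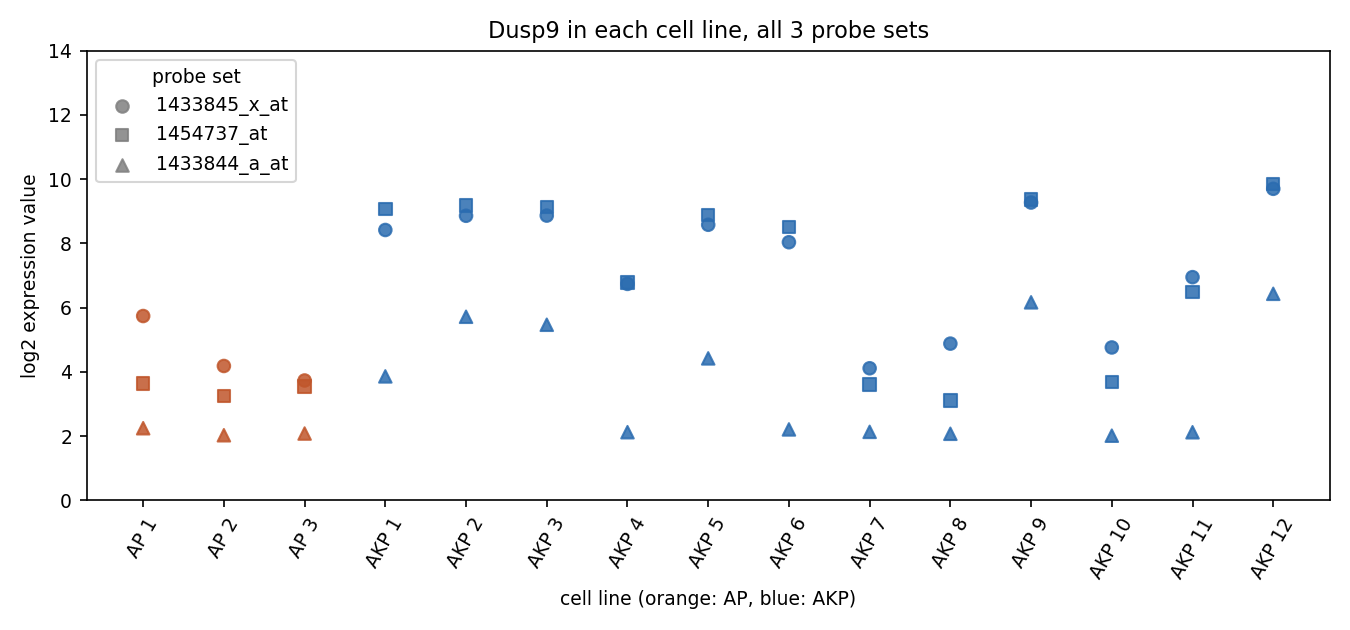
Log2 expression value of the 3 Dusp9 probe sets (symbols) in each of the 15 lines (x axis; AP in orange, AKP in blue). The probe set 1454737_at lies between 3.10 and 3.68 in the 3 AP lines and in AKP 7, AKP 8 and AKP 10, and at 6.48 or higher in the other 9 AKP lines.

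Dusp7, the remaining cytoplasmic ERK phosphatase, lay at 7.35, 7.84 and 8.55 in AP 1, AP 2 and AP 3 and between 6.92 (AKP 8) and 10.05 (AKP 2) in AKP lines, with a median of 8.23. The groups overlapped, and the difference of 0.44 ± 0.57 (SE) did not pass (limma adjusted p = 0.76; 95% interval -0.79 to 1.66). Its highest lines were AKP 2, AKP 5 (9.60) and AKP 9 (9.45). Its other probe sets differed by 0.22 and 1.45, the latter at means of 2.48 in AP and 3.93 in AKP.

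Among the nuclear enzymes, Dusp5, which acts on ERK alone, had the widest difference. It lay at 8.50, 7.25 and 7.89 in AP 1, AP 2 and AP 3. In AKP lines it ranged from 7.43 in AKP 8, over a median of 10.19, to 12.32 in AKP 2, and 11 of 12 lay above every AP line. The difference was 2.26 ± 0.77 (SE; limma adjusted p = 0.16), or 4.77-fold, with a 95% interval of 0.61 to 3.91. Without AKP 8 the difference was 2.50 and just passed over genes (limma adjusted p = 0.049). It did not pass over probe sets without AKP 8, nor over genes without AKP 1 and AKP 8 (2.47; limma adjusted p = 0.058).

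Dusp4, a nuclear phosphatase of ERK, JNK and p38, lay at 11.41, 11.05 and 12.45 in AP 1, AP 2 and AP 3. In AKP lines it ranged from 10.19 in AKP 1 to 13.68 in AKP 3, with a median of 12.81. AKP 1 was lower than all AP lines and 8 AKP lines were higher than all of them, while the difference of 0.93 ± 0.54 (SE) did not pass (limma adjusted p = 0.42). Without AKP 1 the difference was 1.15, and without AP 3 it was 1.34.

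Dusp1, an early response gene whose enzyme acts on p38, JNK and ERK, lay at 12.25, 12.58 and 13.82 in AP 1, AP 2 and AP 3. Its AKP levels ran from 12.01 in AKP 7, over a median of 13.72, to 15.53 in AKP 3. Lines of both ends were AKP lines, 6 above and 2 below every AP line, and the difference of 0.88 ± 0.73 (SE) did not pass (limma adjusted p = 0.60; 95% interval -0.68 to 2.44).

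Dusp2, best known from activated lymphocytes, lay near the mark for dim genes, at 4.12, 4.64 and 4.88 in AP 1, AP 2 and AP 3. In 11 of 12 AKP lines it lay between 3.41 and 4.11, below every AP line, and in AKP 1 it lay at 5.47, above all other lines. The difference of -0.49 ± 0.31 (SE) did not pass (limma adjusted p = 0.47). Without AP 1 and AKP 1 it was -0.83 ± 0.18 (SE) and passed (limma adjusted p = 0.033), between levels close to the floor of the arrays.

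The phosphatases of JNK and p38 showed no call. Dusp16 lay at 10.00, 11.05 and 11.11 in AP 1, AP 2 and AP 3 and from 10.31 (AKP 11) to 12.54 (AKP 2) in AKP lines, with 7 of 12 above every AP line. Its difference was 0.65 ± 0.41 (SE; limma adjusted p = 0.47), and 0.82 for its second probe set. Dusp8 lay at 7.12, 7.92 and 8.75 in AP 1, AP 2 and AP 3 and from 6.93 (AKP 1) to 9.41 (AKP 2) in AKP lines. Its difference was 0.12 ± 0.51 (SE; 95% interval -0.96 to 1.21; limma adjusted p = 0.93), with 1.04 and 0.13 for its dimmer probe sets. Dusp10 lay at 8.08, 8.03 and 7.27 in AP 1, AP 2 and AP 3 and from 6.78 (AKP 7) to 10.69 (AKP 2) in AKP lines. Its difference was 0.15 ± 0.64 (SE; 95% interval -1.22 to 1.53; limma adjusted p = 0.93). AKP 2 was the highest of the 15 lines for Dusp8, Dusp10 and Dusp16, and also for Dusp5 and Dusp7.

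**Figure D3:**
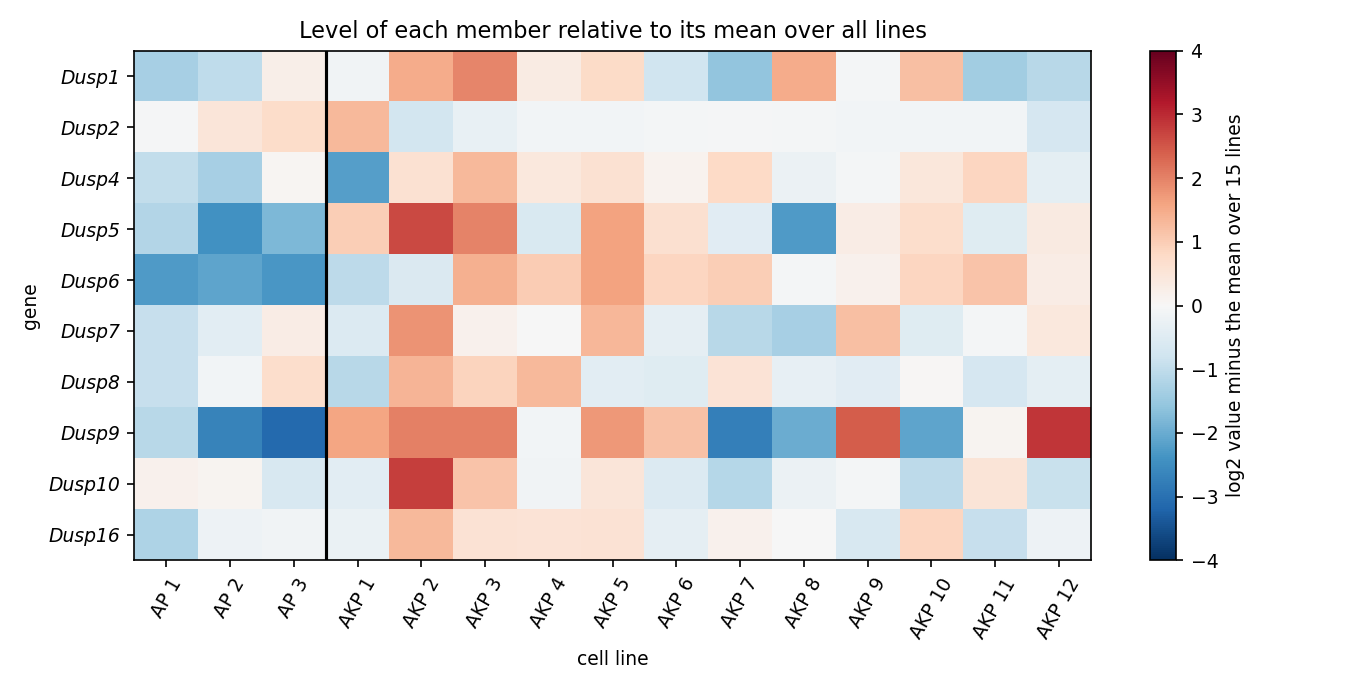
Log2 value of each gene (rows) in each line (columns) minus that gene's mean over the 15 lines, for the probe set with the highest mean; the black line divides AP from AKP lines. AKP 2 is the highest line for Dusp5, Dusp7, Dusp8, Dusp10 and Dusp16, and the row of Dusp6 changes colour between AP and most AKP lines.

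Over the 18 probe sets taken one by one, limma called 1, that of Dusp6 (adjusted p = 0.012 over 45037 probe sets), against 1.29% of all probe sets, or 0.56% higher in AKP. Probe sets of 1 gene differed in size but, except for Dusp10, not in the sign of their difference. For Dusp10 the second probe set differed by -0.04, at means of 2.62 in AP and 2.58 in AKP on the floor.

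**Figure D4:**
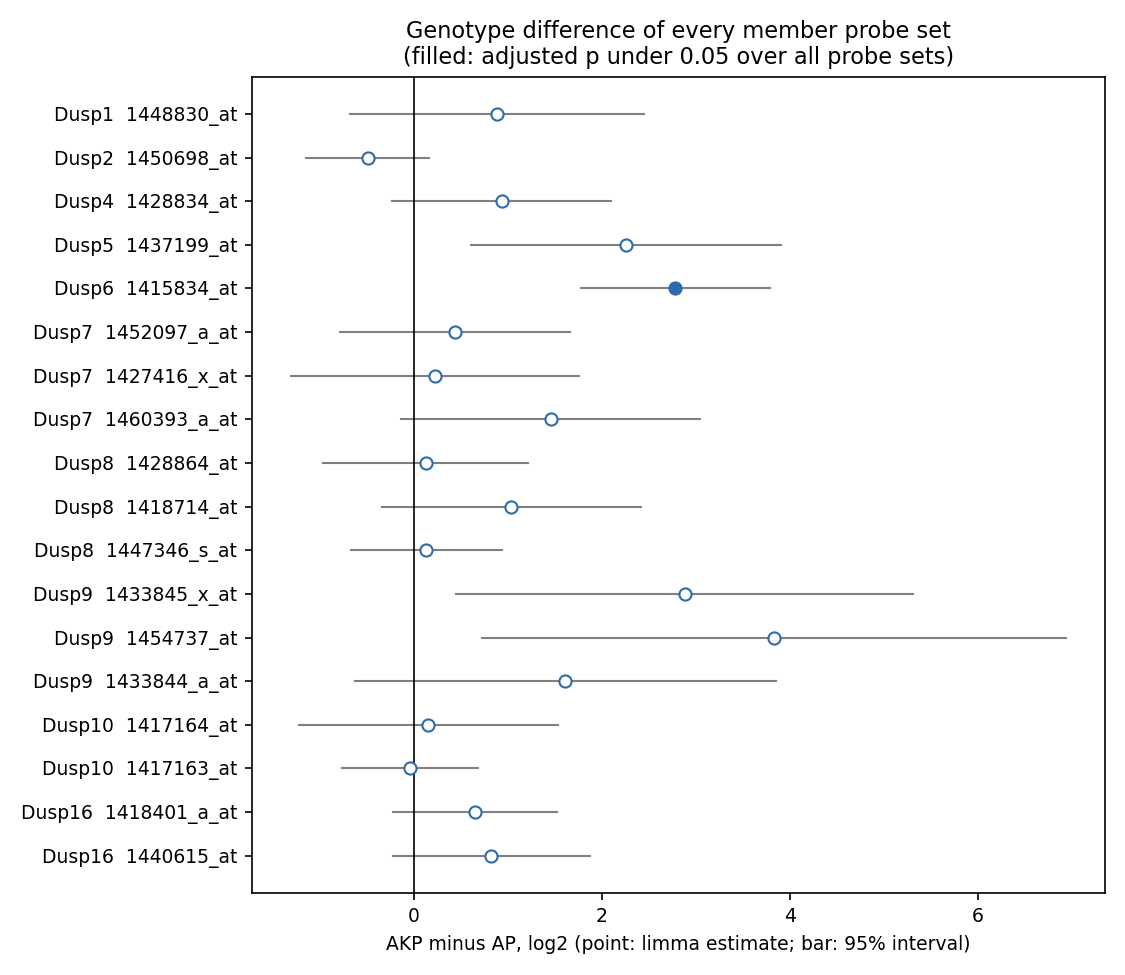
Difference between AKP and AP (log2, x axis) of each of the 18 probe sets with its 95% interval from limma; the filled point passed at an adjusted p under 0.05 over all probe sets. The interval of Dusp6 runs from 1.78 to 3.78, and the widest is that of the Dusp9 probe set 1454737_at, from 0.72 to 6.93.

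The other labels were set beside the same genes. With the presence of a pair number in the fit, the Dusp6 difference was 2.76 (limma adjusted p = 0.014). Between lines labelled female and male, with genotype in the fit, limma called 0 of the 10 genes and 0% of all genes, and the smallest unadjusted p among the 10 was 0.12, for Dusp6. Over all genes, 574 (3.16%) had an unadjusted p under 0.05. Xist, the X inactivation RNA of female cells, was at or above 4.17 in 7 of 10 lines labelled female and 0 of 5 labelled male, so 3 labels were not borne out by it. For a genotype difference that depends on the sex label, limma called 0 of the 10 genes and 2.01% of all genes. That fit rests on a single AP line labelled female, so these counts have no replicate check on the AP side. AKP 6, the line labelled adenoma, lay within the range of the 11 AKP tumour lines for all 10 genes, with Dusp6 at 13.80 and Dusp9 at 8.04. With a single adenoma line there is no test.

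Whether the phosphatase genes vary together was asked among the 12 AKP lines alone, so that the genotype difference does not enter. Of 45 pairs, 0 passed at an adjusted p under 0.05 by Pearson's r or by Spearman's rho (permutation test with 100000 resamples), and 8 had an unadjusted p under 0.05 for r. Dusp9 splits the AKP lines, and r with it can rest on that split. Dusp7 and Dusp9 had r = 0.74 and rho = 0.76 (permutation p = 0.0062 and 0.0055, adjusted 0.097 and 0.083). Without the lines farthest from the median of Dusp7, r was 0.79. Dusp5 and Dusp9 had r = 0.62 and rho = 0.48 (permutation p = 0.032 and 0.12, adjusted 0.19 and 0.40). The 36 pairs without Dusp9 hold 6 of the 8 with an unadjusted p under 0.05 for r, all positive. Dusp4 and Dusp6 had r = 0.76 and rho = 0.69 (permutation p = 0.0030 and 0.017, adjusted 0.097 and 0.19). Without the lines farthest from the median of Dusp4, AKP 1 among them, r was 0.48, and it was 0.57 without AKP 1 alone. Without AKP 2 it was 0.93, and that pair then passed. Dusp8 and Dusp16 had r = 0.74 and rho = 0.81 (permutation p = 0.0065 and 0.0021, adjusted 0.097 and 0.074), with r = 0.60 without the lines farthest from the median of Dusp8. Dusp1 and Dusp16 had r = 0.69 and rho = 0.66 (permutation p = 0.015 and 0.023, adjusted 0.12 and 0.19), and r = 0.78 without the lines farthest from the median of Dusp1. Dusp5 and Dusp7 had r = 0.70 and rho = 0.52 (permutation p = 0.011 and 0.090, adjusted 0.12 and 0.40), but r = 0.36 without the lines farthest from the median of Dusp5. Dusp7 and Dusp10 had r = 0.66 and rho = 0.64 (permutation p = 0.016 and 0.029, adjusted 0.12 and 0.19), and r = 0.33 without the lines farthest from the median of Dusp7. Dusp4 and Dusp8 had r = 0.59 and rho = 0.42 (permutation p = 0.034 and 0.17, adjusted 0.19 and 0.49), and r = 0.35 without the lines farthest from the median of Dusp4. Dusp2 and Dusp7 had rho = -0.79 and r = -0.43 (permutation p = 0.0033 and 0.17, adjusted 0.074 and 0.45), and r = -0.28 without the lines farthest from the median of Dusp2. Except in AKP 1, Dusp2 lay under the mark for dim genes in the AKP lines. Its ranks 4 to 11 from the lowest lay between 4.04 and 4.11, so that rho rests largely on small differences between dim values.

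Dusp6 was set against 19 other genes known as output of ERK in the same 12 AKP lines. By Pearson's r and by Spearman's rho 0 of 19 passed (permutation test), and 2 had an unadjusted p under 0.05 for r. Spred3, a relative of the Sprouty inhibitors, had r = 0.76 and rho = 0.72 (permutation p = 0.0045 and 0.010, adjusted p = 0.085 for r), and r = 0.86 without the lines farthest from the median of Dusp6. Phlda1, a pleckstrin homology domain gene induced by ERK, had r = 0.63 and rho = 0.55 (permutation p = 0.028 and 0.067, adjusted p = 0.23 for r). For Phlda1 r was 0.36 without AKP 1 and 0.84 without AKP 2. Etv4, an ETS factor gene, had r = 0.51, and r = 0.81 without the lines farthest from the median of Dusp6.

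Over all 15 lines, the genes whose pattern was most like that of Dusp6 were Aim2 (r = 0.94), Sgms2 (0.93), Slc7a11 (0.89), Gprc5a (0.88) and Phlda1 (0.88). These values include the genotype difference. Among the 12 AKP lines they were 0.81, 0.74, 0.78, 0.64 and 0.63. For Dusp4 they were Tnfrsf22 (r = 0.93), Smad3 (0.91), Ifnlr1 (0.89), Sertad1 (0.88) and Samd5 (0.87), and for Dusp5 Impdh1 (0.92), Kcmf1 (0.89), Tnpo3 (0.89), Xpot (0.87) and Mctp2 (0.86). All points share the arrays, and these are the highest of 10785 genes.

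Around the phosphatases, the other ERK output genes gave 7 calls among 19, all higher in AKP, with a median difference of 1.49, against 0.792% of all genes called higher. The count was 4 of 19 without AP 3 and 2 of 19 with array weights. The 7 were Etv4 (2.49 ± 0.33, SE), Plaur (2.42 ± 0.41), Phlda1 (1.70 ± 0.32), Etv5 (2.12 ± 0.40), Spry2 (1.61 ± 0.33), Spred2 (1.59 ± 0.33) and Epha2 (3.22 ± 0.75), with limma adjusted p-values from 0.0020 for Etv4 to 0.045 for Epha2. The early response genes Egr1 and Fos, which like Dusp1 are induced within minutes of a stimulus, differed by -0.11 ± 0.90 and 0.69 ± 1.20 (SE; limma adjusted p = 0.97 and 0.83). The list was chosen with earlier results of these lines known and is no independent evidence.

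**Figure D5:**
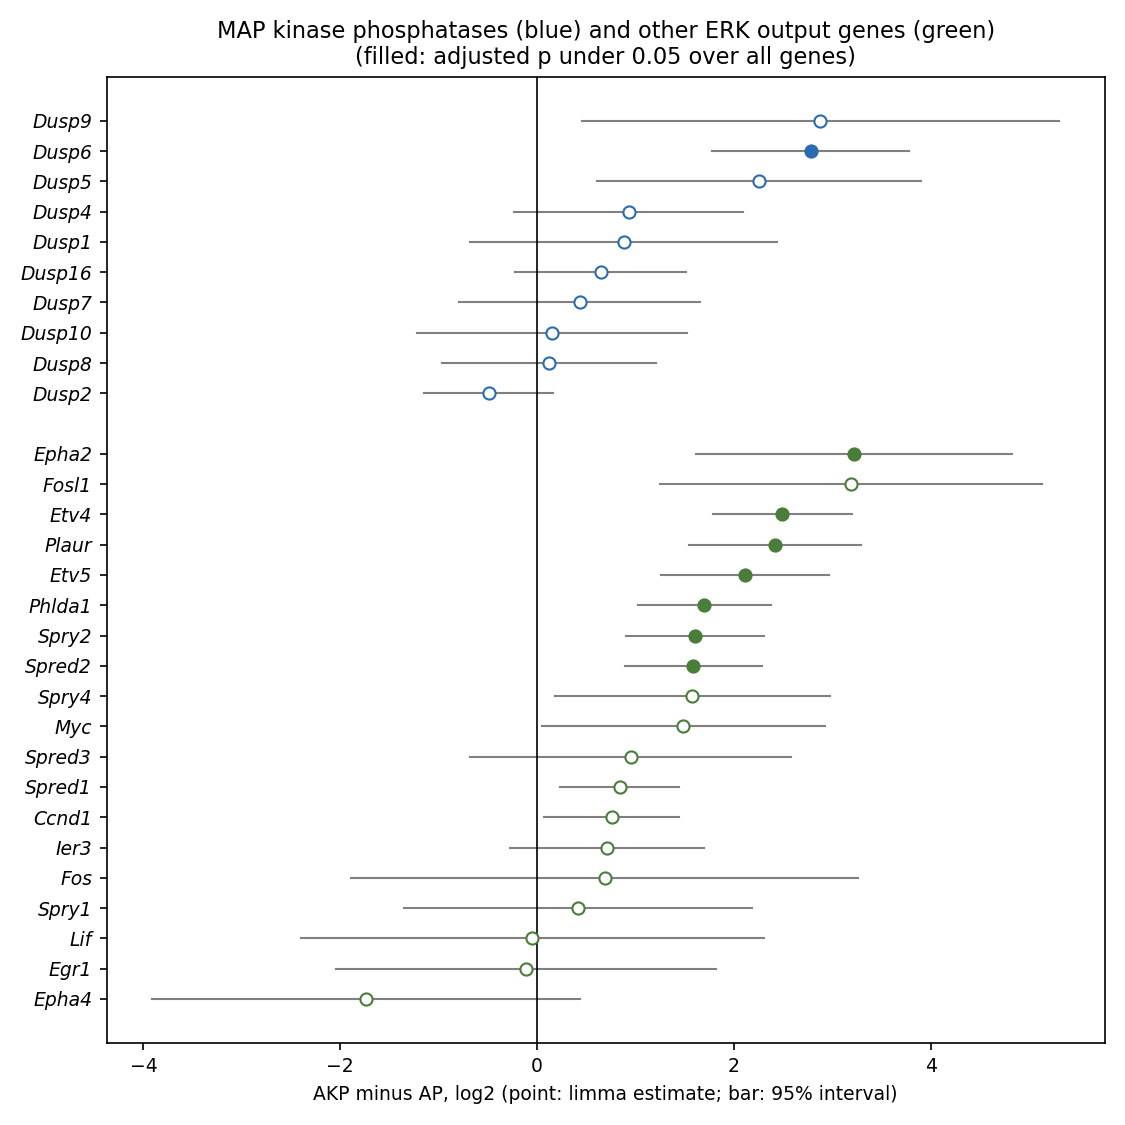
Difference between AKP and AP (log2, x axis) with its 95% interval from limma for the 10 phosphatase genes (blue) and 19 other ERK output genes (green); filled points passed at an adjusted p under 0.05 over all genes. In the first group 1 point is filled, that of Dusp6, and in the second 7.

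The kinases that the phosphatases act on showed no call. Of 11 measured MAP kinase genes 0 passed limma, and 4 had an unadjusted p under 0.05. Over all genes these shares were 1.9% and 16.5%, so 0 calls in lists this small say little about them. Mapk6, which encodes the atypical kinase ERK3, differed by 1.42 ± 0.35 (SE; limma adjusted p = 0.055), and 9 of 12 AKP lines were higher than all AP lines. Mapk7, which encodes ERK5, differed by 0.91 (limma adjusted p = 0.11), Mapk11, a p38 gene, by -0.38 (0.29) and Mapk15 by -0.16 (0.25) on the floor. Of 6 measured MAP kinase kinase genes 0 passed, and 2 had an unadjusted p under 0.05. Map2k1 and Map2k2, which encode the kinases of ERK, differed by 0.80 ± 0.30 and -0.70 ± 0.20 (SE; limma adjusted p = 0.21 and 0.094), while Map2k6 and Map2k3 differed by 0.45 and 0.26.

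Of the 16 other dual-specificity phosphatase genes, 0 passed limma (1.9% of all genes) and 3 had an unadjusted p under 0.05 (16.5% of all genes). Their median difference was -0.05. Dusp3, a small phosphatase without the MAP kinase binding domain, differed by -1.07 ± 0.34 (SE; limma adjusted p = 0.13), and 11 of 12 AKP lines were lower than all AP lines. Dusp23 and Dusp13 differed by -0.60 and -0.44 at means under 3, and Styx, a catalytically inactive relative, by 0.44. Of the tyrosine phosphatases that dock on MAP kinases, Ptprr differed by 4.26 ± 1.62 (SE; limma adjusted p = 0.21), ranging from 2.87 to 11.74 in AKP lines, and Ptpn5 by 1.13 (0.74). Among 10 scaffolds and inducers of JNK and p38, 0 passed and 3 had an unadjusted p under 0.05, beside the same shares of all genes. Mapk8ip1, a JNK scaffold, differed by -2.30 ± 0.69 (SE; limma adjusted p = 0.11) and Map3k5, a stress kinase, by 2.98 ± 1.02 (0.16). Gadd45g and Map3k7 differed by -1.13 and 0.73.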

How the data were processed

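Per the labels' protocols and the design text, RNA of each line was hybridised to 1 Affymetrix mouse array. The authors deposited log2 expression values per probe set. How probe signals were background-corrected, summarized and scaled is not given in the sources used here. Their own AKP against AP comparison, the authors' deposited table, gives, per the file headers, group means in log2, a t score, p-values, a ratio and a fold. The array tables state no genome build.

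Of 45101 probe sets, 64 controls were left out. The platform annotation gave 1 gene for 34945 of the rest, several for 932 and none listed for 9160, and 34741 of the single-gene probe sets matched RefSeq (GRCm38.p6) by Entrez identifier. Where a gene had several probe sets, that of highest mean level stood for it. Values were used as deposited, with no filter.

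Groups came from the titles. Comparisons used limma 3.58.1 in R 4.3.3 (lmFit, eBayes, two-sided) with Benjamini-Hochberg adjustment over all 18193 genes or 45037 probe sets and a threshold of 0.05; the fit was tested on simulated data. Correlations used a two-sided permutation test with 100000 resamples, adjusted within each family, in Python 3.11.15. The members, gene lists, tests and alternatives were chosen with earlier results of these data known. Named genes are the members, up to 4 of each list with the lowest p plus every called one, and the 5 nearest patterns of Dusp4, Dusp5 and Dusp6. Remarks on single lines, on Egr1 and Fos, on Xist, on epithelial and leukocyte marker genes, and on Etv4 against Dusp6 followed a look at their values. The number of arrays, 3 AP among 15, limits the precision.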

Additional observations from a re-analysis of the deposited data

Results flagged for a closer look

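In 20 checks of a single line far from the others with its sex label (10 genes in lines labelled female and in lines labelled male), 2 lines stood out; chance gives about 1 in 20, so the count is close to what chance gives. Dusp4 lay at 10.19 in AKP 1, against at least 11.99 in the other lines labelled female. Dusp2 lay at 4.64 in AP 2, against at most 4.12 in the other lines labelled male, close to the mark for dim genes.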

How the results depend on the processing

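The Dusp6 difference was recomputed under 29 alternatives (leaving out the adenoma line is the same as leaving out AKP 6) and lay between 2.16 and 3.06; it kept its call in 28. Leaving out 1 line gave 2.69 to 2.93, with limma adjusted p from 0.0017 without AKP 1 to 0.045 without AP 3. With the replicate number as a block it was 2.16 ± 0.66 (SE; limma adjusted p = 0.44), where 0 members, 0 probe sets and 0 of 18193 genes were called. In that fit the difference rests on the lines numbered 1 to 3 alone, because the higher numbers occur only in AKP. The labels do not say that the numbers pair the lines. Deviations of same-numbered lines correlated at 0.46, -0.04 and -0.06, and 1 of 3 AP lines correlated best with its own number. So few lines cannot decide whether they are paired. The count of members called, 1 with all lines, was 2 without AP 1 and AKP 1 (Dusp2 and Dusp6, also over probe sets) and ranged from 1 to 2 leaving out 1 line, with 2 without AKP 8 (Dusp5 and Dusp6; over probe sets Dusp6 only). Over probe sets the count of 1 became 0 with array weights (Dusp6 adjusted p = 0.082) and ranged from 0, without AP 3 (Dusp6 adjusted p = 0.052), to 1. Leaving out 1 line, Dusp8 ranged from -0.28 (without AP 1) to 0.53 and Dusp10 from -0.11 (without AP 3; -0.09 without AKP 2) to 0.30. Dusp8 was -0.18 without AP 1 and AKP 1. Pairs correlated among AKP lines ranged from 0 to 1 leaving out 1 line (1 without AKP 2), and Dusp6 with other ERK output genes from 0 to 2: 2 without AKP 1 (Spred3 and Etv4), 1 without AKP 2 (Phlda1) or AKP 12 (Spred3), and 1 without AKP 1 and AKP 8 (Etv4). Called ERK output genes, 7 of 19 with all lines, numbered 0 under the block. The causes were not tested. Over all genes limma called 345, against 153 with array weights, 191 among genes past the 60th percentile of level, 728 without AKP 1 and AKP 8, and 177 (without AP 3) to 584 (without AP 2) leaving out 1 line. With each array centred on its median, the median over all genes went from 0.01 to 0.12, the higher share of calls from 41.7% to 61.4%, and Dusp6 to 2.89. Alternatives for the sex-by-genotype count, chosen after seeing the data, rest on 1 AP line labelled female and say nothing of stability. Depth cannot be given for arrays; 3 AP lines and values near the floor (Dusp2) limit the precision.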
